A study of Mus musculus with 16 samples.

Results

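Wild-type intestinal epithelial cells had 4166 regions with more H3K4me3 than cells lacking NCoR1, and 3270 of them, described here, lay more than 1 kb from every region where H3K9ac or H3K27ac differed between the genotypes in either direction. The other 896 regions, called left out below, had at least 1 such acetylation region within 1 kb of either edge. The opposite list, with more H3K4me3 in the cells lacking NCoR1, held only 131 regions. Whether this imbalance comes from a difference between the libraries as a whole was not tested. The 10 lists used held 23511 regions in all. The regions were chosen from the measured differences themselves, so their H3K4me3 values, and their lack of an acetylation region nearby, describe the choice and are given without a test.

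The cells came from the jejunum of C57BL/6 mouse neonates at postnatal day 12. The wild type (WT) is labelled F/FUN and the NCoR1 deletion (KO) DIECUN, and the series title places the deletion in the intestine. The meaning of the shared UN, the driver of the deletion and any pooling of animals are not given in the sources used here. The files also hold a contig named for UGT1A. Chromatin immunoprecipitation (ChIP) was done for 6 histone marks with 1 library for each mark in each genotype. The differences have no replicate check, and anything else that sets 1 library apart cannot be told apart from the genotype. The lists hold only differences, so acetylation near a region with none listed may be absent, equal in both genotypes or different by less than the cutoff. For the same reason the labelled cell type cannot be checked against its markers.

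H3K4me3 is a mark of the nucleosomes that flank active and poised transcription starts, and it is densest at promoters rich in CpG. H3K9ac and H3K27ac mark active promoters and, for H3K27ac, active enhancers. NCoR1 is a corepressor that nuclear receptors and other factors bring to chromatin, where it acts with the histone deacetylase HDAC3. H3K4me3 and acetylation usually occur together at active promoters, which is why regions that differ in 1 and are not listed for the other are set apart here.

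The following 200-base windows, centred on the summit of a region and read from the mm9 genome on the strand of the named gene, show the extremes among the 3270 regions. Capitals mark CpG. Each window meets no annotated exon and none of the first transcribed bases that RefSeq gives for the gene. The first pair are the promoter regions of highest fold that met these limits, with few CpG.
Bcl2l14, chr6:134347755-134347954, strand +: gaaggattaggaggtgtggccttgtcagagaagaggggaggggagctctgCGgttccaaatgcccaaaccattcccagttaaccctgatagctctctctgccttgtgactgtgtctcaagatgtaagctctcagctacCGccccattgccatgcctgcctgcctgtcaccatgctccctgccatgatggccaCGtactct
Serpina1a, chr12:105101276-105101475, strand minus: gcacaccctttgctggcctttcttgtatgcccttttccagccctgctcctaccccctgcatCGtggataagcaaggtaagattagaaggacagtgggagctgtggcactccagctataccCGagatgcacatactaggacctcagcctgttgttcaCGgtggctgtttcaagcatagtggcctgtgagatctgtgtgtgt
The second pair are promoter regions among those of highest pileup (the number of overlapping extended tags at the summit), and hold 14 and 20 CpG.
Eif4a2, chr16:23108075-23108274, strand +: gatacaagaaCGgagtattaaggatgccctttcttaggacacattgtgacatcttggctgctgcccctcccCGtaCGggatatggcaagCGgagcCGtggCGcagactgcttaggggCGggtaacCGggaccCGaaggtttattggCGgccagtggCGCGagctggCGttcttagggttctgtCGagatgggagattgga
1110037F02Rik, chr4:11413328-11413527, strand +: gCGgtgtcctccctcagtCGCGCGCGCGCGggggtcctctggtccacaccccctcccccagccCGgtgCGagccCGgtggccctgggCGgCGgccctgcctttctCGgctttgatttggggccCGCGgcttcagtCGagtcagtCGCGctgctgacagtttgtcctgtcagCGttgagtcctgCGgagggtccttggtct
The third pair have the highest fold over 10 kb from any annotated start, and are named by the gene with the nearest start.
Bbx, 167722 bp from its start, chr16:50163285-50163484, strand minus: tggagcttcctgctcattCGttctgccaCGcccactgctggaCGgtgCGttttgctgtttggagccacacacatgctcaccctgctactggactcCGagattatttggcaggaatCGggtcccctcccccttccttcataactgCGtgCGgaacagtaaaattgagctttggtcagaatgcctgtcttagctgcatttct
Yeats4, 14909 bp from its start, chr10:116646523-116646722, strand minus: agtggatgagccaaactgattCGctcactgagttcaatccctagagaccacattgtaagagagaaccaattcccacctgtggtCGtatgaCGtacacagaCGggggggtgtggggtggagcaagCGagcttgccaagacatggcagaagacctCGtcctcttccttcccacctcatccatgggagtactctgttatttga
For comparison, a pair of promoter regions was left out, of the highest fold and the highest pileup in that class that met the same limits. WT-higher H3K9ac shared bases with the region at Susd2, and KO-higher H3K27ac lay 877 bp from the region at Ddx3x.
Susd2, chr10:75106193-75106392, strand minus: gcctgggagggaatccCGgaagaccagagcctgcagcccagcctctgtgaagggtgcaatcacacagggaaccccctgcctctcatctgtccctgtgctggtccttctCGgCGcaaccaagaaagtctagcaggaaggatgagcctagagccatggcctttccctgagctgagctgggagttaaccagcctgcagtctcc
Ddx3x, chrX:12858292-12858491, strand +: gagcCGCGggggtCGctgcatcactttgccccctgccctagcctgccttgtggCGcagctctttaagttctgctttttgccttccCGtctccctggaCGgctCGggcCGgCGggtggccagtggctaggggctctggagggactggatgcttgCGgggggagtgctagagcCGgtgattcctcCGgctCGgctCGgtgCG

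Among the first 6 windows, the pair of high pileup held 14 and 20 CpG and the others 3 to 8. That contrast belongs to the windows printed. In the 300 bp around the summit, the region of highest pileup, at Hjurp, had 12 CpG and the region at St8sia2, among the highest folds, had 21, which is also the median of the set.

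The fold is the caller's (WT pileup + 1) over (KO local value + 1), where the KO local value is the highest of the KO library's coverages around the summit, scaled to the smaller library. It was recovered from the pileup and the fold. The lowest KO local value, 1.96 tags, matched the genome-wide mean coverage computed from the file headers, also 1.96 tags, and is called the floor. At Bcl2l14, a BCL2 family gene, WT had 20 tags against a KO local value of 2.65. At Serpina1a, a secreted protease inhibitor of a family with near-identical copies, WT had 29 tags against 4.29. At Eif4a2, a helicase of translation initiation, WT had 183 tags against 113. The distal region whose nearest start is that of Bbx had 25 tags against 2.27, a fold of 7.95 and the highest of the set.

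Most of the 3270 regions lay at promoters, but fewer than of the regions left out. A promoter is here any annotated transcript start within 1 kb of the region. Of the 3270 regions, 2272 (69.5%, 95% Wilson interval 67.9 to 71.0) were at a promoter, against 723 of the 896 left out (80.7%, 78.0 to 83.1). Regions over 10 kb from any start made up 17.6% of the set (574 regions, 16.3 to 18.9) and 9.04% of those left out (81 regions, 7.33 to 11.1). On the chromosomes, 16.8% of the set lay between genes, 10.1% in introns and 3.08% in exons away from promoters, against 9.96%, 6.26% and 2.91% of those left out. At promoters, the nearest start belonged to a protein-coding gene in 2107 regions, to a lincRNA in 70 and to a pseudogene in 31. These intervals, like all below, cover counting error over regions of 1 pair of libraries and not the spread between animals.

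The promoter share followed the pileup in both classes. Of regions with under 20 tags at the WT summit, 6.18% of the set and 19% of those left out were at promoters, and from 100 tags on the shares were 94.8% and 94.5%. Between these ends the shares rose from bin to bin in both classes, and the intervals of the 2 classes overlapped in every bin. Overlap does not show equal shares, and the order of the classes varied. The set had the lower share from 20 to under 40 tags (34.9% against 47.4%) and the higher share from 40 to under 60 tags (70.4% against 65.0%). The number of weak regions differed as well. Regions with under 20 tags made up 10.9% of the set (356) and 2.34% of those left out (21). The set held 94.4% of all listed WT-higher H3K4me3 regions in that lowest bin, and 67.8% of those with 80 to 99 tags.

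**Figure D1:**
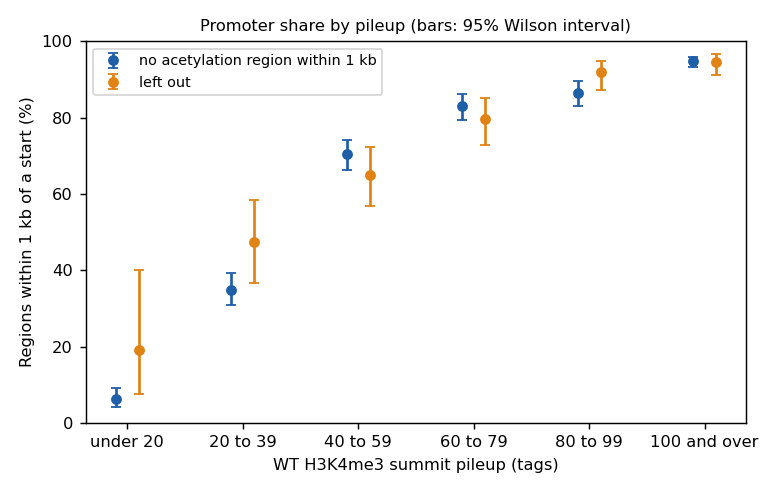
Share of regions within 1 kb of an annotated start (y axis, percent) by WT H3K4me3 summit pileup (x axis, tags) for the 3270 regions with no acetylation region within 1 kb (blue) and the 896 left out (orange), with bars for the 95% Wilson interval. Both classes rise from under 20% in the lowest bin to 94.8% and 94.5% in the highest.

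At promoters the regions had nearly the same median height as those left out, and away from promoters their medians were lower in height and width. At least 100 WT tags were reached by 42.9% of promoter regions in the set and 38.0% of those left out. The median WT pileup of promoter regions was 91 tags (95% interval of the median 88 to 93) in the set and 90 (86 to 92) among those left out. Their median KO local values were 46.2 and 45.3 tags, and their median folds 1.92 and 1.95. Away from promoters the median WT pileup was 26 tags (24 to 29) in the set against 50 (45 to 56), the KO local value 7.70 against 19.7, and the fold 3.17 (3.03 to 3.29) against 2.54 (2.37 to 2.71). The KO local value was at the floor in 97 of 975 regions of the set away from promoters and in 5 of 2272 at promoters. Over all regions the median pileup was 72 in the set and 83 among those left out, and the median fold 2.12 and 2.03, an order that turned with only acetylation regions at a -log10 q of at least 5 (2.09 and 2.12). A -log10 q of at least 5 was reached by 34.2% of the set (32.6 to 35.9) and 40.6% of those left out (37.5 to 43.9). A weak region passes the caller's q cutoff only with a high fold, so the lowest fold listed at a given pileup is set by that cutoff.

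**Figure D2:**
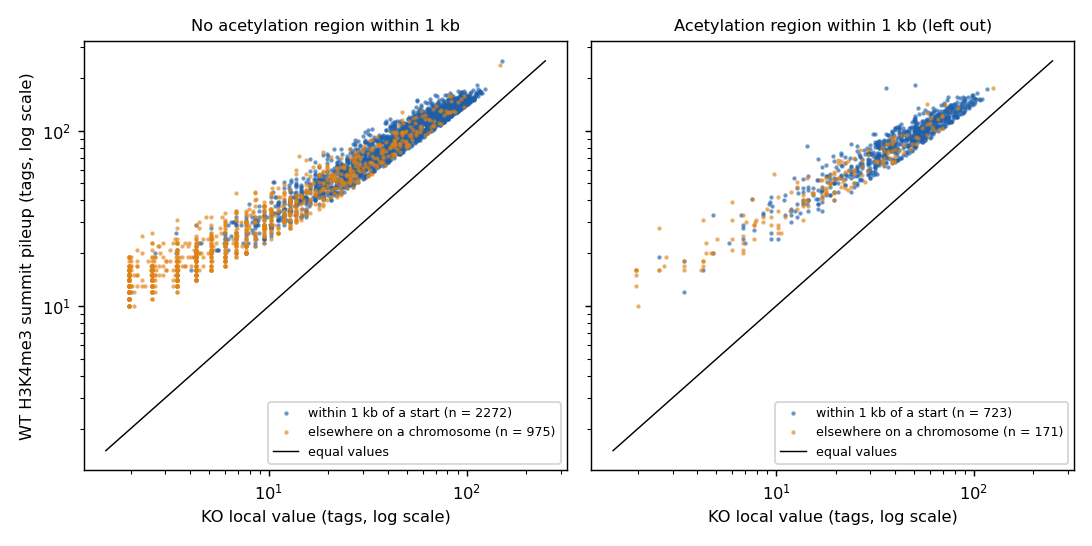
WT summit pileup (y axis, tags, log scale) against the KO local value (x axis, tags, log scale) for each region on a chromosome, with no acetylation region within 1 kb (left panel) or left out (right panel), blue at promoters and orange elsewhere; the line marks equal values. Low values at the lower left are mostly orange and far more numerous in the left panel, where 356 regions have under 20 tags.

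Regions of the set were slightly narrower. The median width was 185 bp (182 to 187) against 203.5 bp (199 to 211) among those left out, and the shortest width in the list, 147 bp, equals the caller's fragment length. At promoters the medians were 192 and 206 bp, and elsewhere 172 and 199 bp. Regions over 400 bp made up 1.65% of the set (54) and 7.25% of those left out (65). The contrast held only for regions left out near WT-higher acetylation, with a median of 207 bp (201 to 213) and 65 of 815 over 400 bp. Those near KO-higher acetylation had a median of 176.5 bp (167 to 195), with 0 of 82 over 400 bp. The widest of the set, 823 bp, lay at Mast4, a kinase gene, with 93 WT tags against a KO local value of 54.7. The next widest at promoters lay at Mamdc4 (678 bp), which encodes an endosomal membrane protein of the suckling intestine, at L3mbtl1 (670 bp), a methyl-lysine reader, and at Flrt2 (611 bp) and Fjx1 (589 bp). All 5 lay over 2 kb from the nearest acetylation region.

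The position around the start did not separate the classes. Promoter summits lay a median of 147 bp downstream of the nearest start in the set (139 to 154) and 151 bp downstream among those left out (138 to 167). They were downstream of the start in 77.1% and 79.3%, and between 1 and 300 bp downstream in 57.6% and 58.6%. Protein-coding starts on both strands lay within 1 kb of 9.13% of the set's regions at coding promoters and of 7.48% of those left out. The pair Mrpl46 and Mrps11, mitochondrial ribosome genes, shared such a region, with 150 WT tags and a fold of 1.84.

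**Figure D3:**
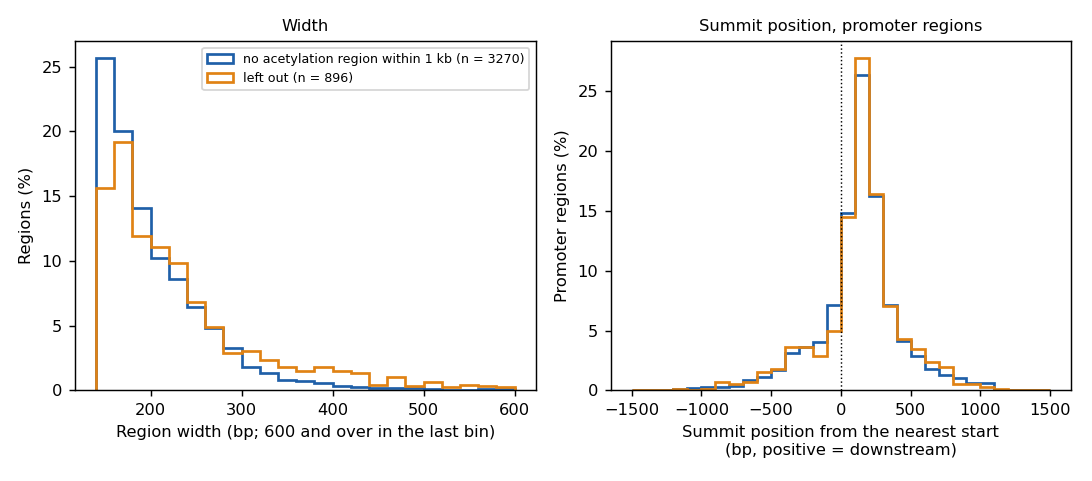
Left, distribution of region widths (x axis, bp; y axis, percent of regions) for the set (blue) and the regions left out (orange). Right, position of the summit from the nearest start (x axis, bp, positive downstream; y axis, percent of promoter regions); the position curves peak in the same bin, while the width curve of the set is higher at the shortest widths and lower above 300 bp.

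In base composition the promoter regions of the 2 classes were alike in their medians, and the others were not. In the 300 bp around the summit the median GC content at promoters was 66% in both classes, with a median observed over expected CpG of 0.765 and 0.759. Away from promoters the GC medians were 55% in the set and 60% among those left out, and the CpG ratios 0.416 and 0.585. Windows with a GC content of at least 50% and a CpG ratio of at least 0.6, the usual limits of a CpG island, made up 29.3% of the set away from promoters and 47.4% of those left out. The WT-higher lists were richer in GC than the KO-higher lists of the same mark: 64% against 52.3% for H3K4me3, 60.3% against 51.7% for H3K9ac, 57.7% against 52.7% for H3K27ac and 53% against 50% for H3K9me3. The part of this common shift in the choice of regions was not tested.

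Of 21693 protein-coding genes, with chromosomes 18 and Y not counted, 2220 (10.2%) had a region of the set within 1 kb of a start. A region left out lay there at 653 (3.01%). Both kinds were at 15 genes, an overlap that the 1 kb rule limits, since neighbouring regions can share an acetylation region. The shares of 10.2% and 3.01% are the background for the gene groups below. Genes with an island-like promoter had a region of the set in 16.5% of cases (1502 of 9076) and other genes in 5.69% (718 of 12617), against 4.73% and 1.78% for regions left out. Genes on chromosome X had a region of the set in 5.29% of cases (49 of 927, 4.02 to 6.92) and genes on the autosomes other than 18 in 10.5% (10.05 to 10.9). Regions left out also had the lower share on X, 1.62% against 3.07%. Promoter sequence was taken from 250 bases before to 50 after the first start, for genes with a region of the set and genes with a region left out. The Sp1-type box GGGCGG was present, on either strand, in 63.8% and 66.9% of them against 43.3% of all genes, and TATAAA in 6.49% and 6.13% against 13.5%. The ETS-type motif CCGGAAGT was in 5.90% and 3.98% against 4.71%, and the E-box CACGTG in 10% and 9.19% against 7.78%. The YY1 motif differed most between the classes relative to its share, with 1.98% (1.48 to 2.65) and 0.613% (0.238 to 1.56) against 1.15%.

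Gene groups with more such promoters than the background included respiratory chain complex I, the Polycomb repressors and the splicing factors. No gene of the first and second group had a region left out, with upper limits of 8.57% and 16.8% that include the background of 3.01%. Of 41 Nduf genes, most of which encode subunits or assembly factors of complex I, 13 (31.7%, 19.6 to 47.0) had a region of the set. Their median pileup was 140 tags and their median fold 1.71, against 99 tags and 1.89 over all 2220 genes. Ndufa4 had 52 WT tags against a KO local value of 13 and a fold of 3.79, with the summit 874 bp downstream of the start. Ndufb11 had 87 tags and a fold of 2.05, in a region whose nearest start is that of Rbm10. Ndufb10 had 153 tags and a fold of 1.78. Of 19 genes in the Polycomb repressor list, which also counts the opposing demethylase Kdm6a, 6 (31.6%, 15.4 to 54.0) had a region of the set. They were Kdm2b, which recruits a Polycomb complex to CpG islands, Rnf2 and Ring1, its ubiquitin ligases, Pcgf5, a further subunit, Jarid2, a cofactor of the H3K27 methyltransferase, and Kdm6a, a demethylase that opposes it. The Kdm2b region had 83 tags against 32.5, a fold of 2.51, and the Rnf2 region 107 tags against 42.8, a fold of 2.47. The Jarid2 region had 91 tags against 39.3 and the Pcgf5 region 115 against 58.1. Ring1 and Kdm6a had the highest KO signal of the 6 beside the smallest folds, with 109 tags against 65.8 and 133 against 83.8. Of 47 splicing factors, 9 (19.1%, 10.4 to 32.5) had a region of the set and 3 a region left out. Srsf6 had 85 tags and a fold of 2.28, and Srsf9 121 tags and a fold of 2.09. The intervals of these 3 groups lie above the background, but 24 lists were looked at, the lists were chosen with results in view, and their genes are not replicates. The share of 16.5% among genes with an island-like promoter lies inside the intervals of the Polycomb repressors and splicing factors. It lies below that of complex I. The part of promoter CpG content in these shares was not tested.

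Among the genes that write, read or remove acetylation, 6 of 31 (19.4%, 9.19 to 36.3) had a region of the set and 2 a region left out. The interval includes the background. The 6 were Hdac7, a deacetylase, Rcor1, a corepressor subunit, Crebbp, an acetyltransferase, Ncoa1 and Ncoa3, nuclear receptor coactivators, and Brd3, a reader of acetylated histones. Hdac7 had 59 tags and a fold of 2.67 and Ncoa1 131 tags and a fold of 2.23. The other 4 had folds from 1.49 at Ncoa3 (120 tags against 80.4) to 1.70 at Brd3 (94 against 54.7), and Crebbp had 140 tags against 92.3. Of 20 genes of H3K4 methylation itself, only Rbbp5, a shared subunit of the methyltransferase complexes, had a region of the set (133 tags, fold 1.78), and Mll1 had a region left out.

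Of 55 developmental genes that Polycomb typically covers, 9 (16.4%, 8.86 to 28.3) had a region of the set and 2 had one left out, an interval that includes the background. The 9 regions were weaker than those of all 2220 genes, with a median of 48 tags against 99 and a median fold of 2.25. The Nkx2-1 region had 25 WT tags against a KO local value of 9.41, the Six2 region 41 against 15.7 and the Irx2 region 48 against 19.7. Hoxd3, at 84 tags against 35.9, was higher in both genotypes.

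The intestinal lists had intervals that included the background. Of 25 Wnt and crypt stem cell genes, 5 (20%, 8.86 to 39.1) had one and none had a region left out: Cd44 (56 tags, fold 2.21), Smoc2 (97 tags, 2.0), Myc (84 tags, 1.91), Rnf43 (109 tags, 1.81) and Lrig1 (108 tags, 1.65). Of 26 enterocyte genes, 3 had one and 3 a region left out. Prdm1, a repressor of adult enterocyte genes in the suckling gut, had both kinds, and its region in the set had 60 tags and a fold of 2.53. Lct, which encodes lactase, had 87 tags against a KO local value of 45.3, a fold of 1.90, and KO-higher H3K27ac 5165 bp away. Gata4, a factor of jejunal identity, had 97 tags and a fold of 1.52, also with KO-higher H3K27ac as its nearest, at 9494 bp. Of 25 secretory cell genes, 3 (12%, 4.17 to 29.96) had one, namely Fcgbp (33 tags, fold 3.27), Sox4 (69 tags, 2.14) and Dll1 (145 tags, 1.47), and none had a region left out. Of 40 genes of lipid metabolism and nuclear receptors, 3 had one. Ppard, a fatty acid sensing receptor, had 128 tags and a fold of 2.21, with KO-higher H3K27ac 6319 bp away.

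Several large families lay near the background of 10.2%. These were the mitochondrial ribosome with 10 of 77, the cytosolic ribosome with 8 of 77, the proteasome with 5 of 48 and the replication-dependent histones with 7 of 67. DNA repair stood at 7 of 37 (18.9%, 9.48 to 34.2), Zfp genes at 47 of 356 (13.2%, 10.1 to 17.1), cell cycle genes at 5 of 32, and RNA polymerase and Mediator at 8 of 56. Ubiquitin ligases and proteases, with 17 of 257 (6.61%, 4.17 to 10.3), had an interval that reached the background, and olfactory receptors, with 1 of 1113, lay below it. That 1, Olfr94, belongs to a family of similar copies, and whether its reads are shared with them was not tested. Its region had 75 tags, a summit 685 bp downstream of the start, a GC content of 71.3% and 33 CpG. Markers of other cell types had a region in 2 of 14 immune genes (Coro1a and Ikzf1) and in 1 of 13 stromal genes (Des), against 1 of 17 epithelial genes (Lct), counts too small to set apart from the background.

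**Figure D4:**
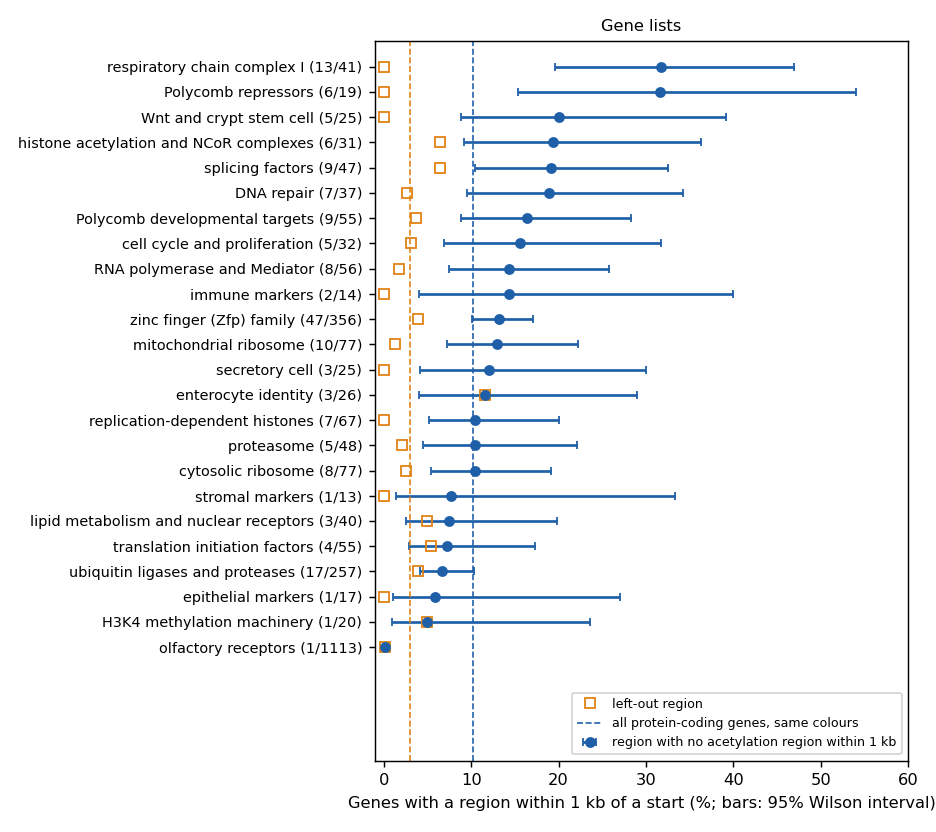
Share of each gene list with a region within 1 kb of a start (x axis, percent) for the set (filled circles, with 95% Wilson intervals; counts in brackets) and for regions left out (open squares). The dashed lines give the shares over all protein-coding genes, 10.2% and 3.01%; complex I and the Polycomb repressors, at 31.7% and 31.6%, lie farthest to the right.

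The promoter regions of highest fold had a low WT signal at their own summits. The lists hold only differences, so H3K4me3 elsewhere at the same promoters is not known, and these genes are not shown to be low in WT. Gabrb2, a GABA receptor subunit, had 26 WT tags against a KO local value of 3.41, a fold of 6.12. Mbnl3, a splicing regulator, had 15 tags against the floor, St8sia2, a polysialyltransferase, 21 against 3.42, and Rap1gap, which switches off the GTPase Rap1, 20 against 3.41. The rest of the 8 highest were Bcl2l14, Serpina1a and the pseudogenes Gm15793 and Gm7094. Promoter regions of the highest pileup had a high signal in both genotypes. Hjurp, the chaperone of the centromeric histone, had 250 tags against 151, a fold of 1.65. Eno1, an enzyme of glycolysis, had 169 tags against 116, Hsp90ab1, a chaperone, 170 against 108, and Stt3a, of N-glycosylation, 173 against 124. At the cytoskeletal gene Actb 169 tags stood against 117, a fold of 1.44, and KO-higher H3K27ac lay 1270 bp away, just outside the limit.

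Several genes had more than 1 region of the set at their starts, 135 with at least 2 and 13 with at least 3. Mamdc4 had 6, with pileups from 50 to 98 tags and folds from 2.15 to 3.11, and KO-higher H3K27ac was the nearest acetylation for all 6, at 1407 to 4365 bp. Lmo4, a LIM-only transcription cofactor, had 4, and Mpped2 had 4, with pileups from 43 to 83 tags.

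Most of the set lay far from any acetylation difference, but the gaps expected from the number of acetylation regions alone were not computed. The median gap to the nearest acetylation region was 76423 bp, 61.8% of the set lay over 50 kb away or had none on its sequence, and 390 regions (11.9%) lay within 10 kb. The share of WT-higher among the nearest acetylation regions differed by distance. WT-higher acetylation was the nearest for 94.7% of regions that shared bases with an acetylation region (92.7 to 96.2) and for 81.4% of those up to 1 kb away (76.2 to 85.7). It was the nearest for 50% of regions 1 to 2.5 kb away (40.4 to 59.6), 40% at 2.5 to 5 kb (30.9 to 49.8) and 48.4% at 5 to 10 kb (41.4 to 55.5). Farther away, where most of the set lay, it was the nearest for 54.3% at 10 to 50 kb (51.0 to 57.6) and 58.6% beyond 50 kb (56.5 to 60.8). WT-higher regions made up 34.1% of all 13655 acetylation regions. Just outside the limit were Gm17439 at 1003 bp (29 tags), Slc19a2 at 1021 bp (122 tags) and Gm5069 at 1041 bp (69 tags), and then Hnrnpa3 at 1052 bp (116 tags) and Pex19 at 1067 bp (120 tags). Just inside were Gm12962 at 993 bp (44 tags), Vps18 at 988 bp (114 tags) and Herpud1 at 981 bp (96 tags), and then Erbb2 at 968 bp (142 tags) and Jub at 966 bp (54 tags). Of the 896 left out, 815 had WT-higher acetylation near them, 82 KO-higher and 1 both. The 82 had a higher pileup, with a median of 105 tags, and a lower fold, 1.81, than the set.

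The other marks were seldom listed at the same place. WT-higher H3K4me1 shared bases with 37 regions of the set (1.13%, 0.822 to 1.56) and with 26 left out (2.90%, 1.99 to 4.22), against 1.51% of the whole list. Among the 37 at low WT H3K4me3 were Fev and Neurog2, factors of neuronal fate, with 29 and 56 tags, Hand2, a factor of heart and limb, with 42, Robo2, an axon guidance receptor, with 42, and Shank1, a synaptic scaffold, with 48. WT-higher H3K27me3 shared bases with 13 regions of the set and 3 left out (0.384% of the whole list), WT-higher H3K9me3 with 21 and 4 (0.6%), and KO-higher H3K9me3 with 2 and 0 (0.048%). Of these, 12 of the 13 and 9 of the 21 lay in 3 stretches where regions were in both repressive WT lists, on chromosome 17 at Dynlt1a and Tmem181b-ps, on chromosome 15 at Gm3362, and on the contig named for UGT1A. These stretches held 28 regions of the set and 17 left out. There H3K4me3 and both repressive marks had WT-higher regions, which is how the stretches were chosen. Acetylation did not always go the same way, since KO-higher H3K27ac shared bases with a region left out on the contig. What sets these stretches apart was not tested. Without them the set held 3242 regions, its promoter share was 70.0% and its H3K4me1 share 0.895%, against 1.82% of those left out. Outside the stretches the WT-higher H3K9me3 regions met 12 regions of the set, among them 16 tags and a fold of 5.74 in an intron of Akap9, a kinase anchoring gene, and 16 tags and a fold of 5.63 near Setdb1, an H3K9 methyltransferase gene.

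RNA was compared through the authors' deposited table of KO over WT. It lists genes next to regions with more H3K4me1 in WT, so it is no sample of all genes, and its column names give no age or cell type, so its match to the ChIP cells is not known. Of 1296 protein-coding genes in the authors' deposited table, 10.5% had lower RNA in KO, with an FDR (false discovery rate) under 0.05, and 5.79% had higher RNA. The 183 genes with only a region of the set at their starts were near the background in the lower share and below it in the higher share: 21 were lower (11.5%, 7.63 to 16.9) and 4 higher (2.19%, 0.853 to 5.48), with a median log2 fold change of -0.10 (-0.14 to -0.06). Of the 95 genes with a region left out, 29 were lower (30.5%, 22.2 to 40.4) and 4 higher, with a median of -0.23 (-0.31 to -0.15). Of the 1018 genes with neither, 86 were lower (8.45%, 6.89 to 10.3) and 67 higher, with a median of -0.03 (-0.06 to -0.01). The intervals of the lower share in the first and second group do not overlap, and the difference itself was not tested, since genes are not replicates. The sign is read from the column name, in which the first group named is taken as the baseline.

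Genes lower in KO in the authors' deposited table, with a region of the set, included Col25a1, a transmembrane collagen, at a log2 fold change of -1.52 (FDR 0.0279, H3K4me3 fold 2.0). Reps2, an endocytic adaptor, stood at -0.77 in the authors' deposited table (FDR 1.64e-07, H3K4me3 fold 2.18) and Serpina1a at -0.73 (FDR 1.96e-07). Rap1gap stood at -0.54 in it (FDR 0.00058), Rgl3 at -0.78 (FDR 0.0419), Pitx1, a homeodomain factor, at -0.65 (FDR 0.0156) and Gm7030, a class I histocompatibility gene with close copies, at -0.67 (FDR 0.00053). The 4 higher in KO in the authors' deposited table were Fam134b, a receptor for turnover of the endoplasmic reticulum, at 0.58 (FDR 6.43e-10), Actb at 0.36 (FDR 0.000171), Pank3, of coenzyme A synthesis, at 0.31 (FDR 0.00248) and Jak2, a cytokine receptor kinase, at 0.30 (FDR 0.014). These 4 had H3K4me3 higher in WT, with folds of 2.23, 1.44, 1.72 and 1.71.

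**Figure D5:**
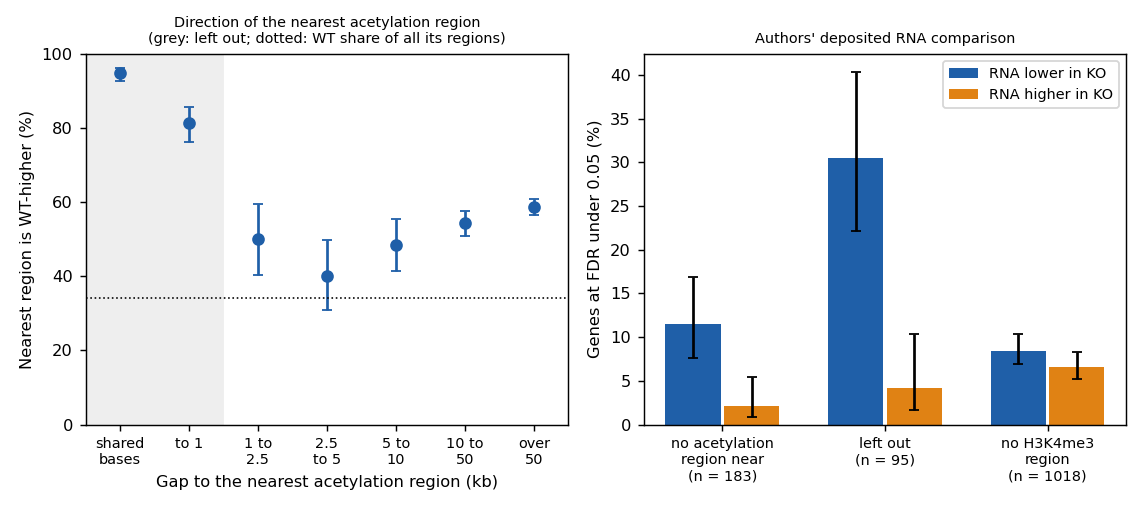
Left, share of H3K4me3 regions whose nearest acetylation region is WT-higher (y axis, percent, with 95% Wilson intervals) by the gap to it (x axis, kb); grey marks the regions left out and the dotted line the WT share of all acetylation regions, 34.1%. Right, share of protein-coding genes lower (blue) or higher (orange) in KO at an FDR under 0.05 in the authors' deposited table, with 95% Wilson intervals; the lower share is 11.5% for the set, 30.5% for genes with a region left out and 8.45% for genes with neither.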

How the data were processed

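ChIP libraries of 6 histone marks, 1 per mark and genotype, were compared through 10 of the authors' deposited region lists. The 4 input libraries were not analysed here. The regions of the KO-labelled H3K4me1 and H3K27me3 lists repeat the WT ones and were not used. The authors' RNA comparison was read from columns deposited with the KO-labelled H3K4me1 list. Tags were aligned with Bowtie2 2.2.9 to mm9, and CASAVA 1.8.2, MACS2 2.1.1 and HOMER 3.12 are also named, per the submitters' processing notes. Per the file headers, MACS 2.0.10.20130419 called each list with 1 genotype's library as treatment and the other's as control, at a q-value cutoff of 0.05, keeping 1 tag per position. The deposited columns used are the summit pileup (a signal in tags), the fold over the control (a ratio), and -log10 of the p-value and q-value; the summit pileup and fold are the authors' values. Kept tags were 24880783 for WT and 29097769 for KO H3K4me3, and 24263055 to 32095696 in the acetylation libraries. Tag size is 75 bp in the headers and 50 cycles in the labels.

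Gaps between intervals, promoter status and base composition were computed against the mm9 genome and its GENCODE annotation with Python 3.11.15, pandas 2.3.3 and pysam 0.24.0. Chromosomes 18 and Y, with no region in the lists, were left out of the gene totals, and 23 regions of the set are on no assembled chromosome. Why the lists hold no region on chromosome 18 is not known, so nothing is shown for its genes. Shares have 95% Wilson intervals and medians 95% order-statistic intervals. The code was tested on simulated intervals. RNA values are the log2 fold changes and FDR (adjusted p-values) of the authors' deposited table, whose 12 per-library columns were not used.

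No test between genotypes was possible. The regions and the 24 gene lists were chosen with earlier results of these data known. Named genes were those with the highest fold, pileup or width, up to 4 per list by fold, those nearest the 1 kb limit, and those furthest changed in RNA; the genes named beside H3K4me1 and the members of lists beyond the first 4 were chosen after their values were seen. Alternatives changed the distance limit, the promoter definition, the q cutoffs and the acetylation lists counted.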

Additional observations from a re-analysis of the deposited data

How the results depend on the processing

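Of 100 values recomputed, 83 stayed within their own interval or within 1.5 times the count and 17 moved. With only H3K4me3 regions at a -log10 q of at least 5 the set fell to 1119 regions, its median width to 174 bp and GC to 62.3%, while its median pileup was 77 and its fold 2.47 (2.36 for those left out). With only acetylation regions at that limit, the promoter share of the set was 71.1%, and the median fold of the regions left out, 2.12, was above that of the set, 2.09, the opposite order to the main 2.03 and 2.12. The regions left out then had an H3K4me1 share of 4.56%. With a promoter window of 2.5 kb the promoter shares were 74.2% and 85.3% left out, and with protein-coding starts alone 66.3% and 77.6%. With shared bases in place of 1 kb the regions left out had a median width of 213 bp. Counting H3K4me1 within 1 kb gave 2.05% and 5.92%. Leaving out the 3 stretches higher in WT for both repressive marks, an alternative chosen after seeing the data, gave an H3K4me1 share of 1.82% among regions left out. No paired analysis was possible because each mark has 1 library per genotype; for the same reason no replicate could be left out. Depth limits which acetylation differences reached the lists, so a region with none near it is not shown to have equal acetylation.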
